A study of Mus musculus with 24 samples.

Results

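The comparison concerned 8 whole mammary tumors, 4 of the D2.1 cell line and 4 of the D2A1 cell line, all grown in BALB/c mice, which keep an intact adaptive immune system. The 8 libraries were those whose sample labels gave a tumor, 1 of the 2 lines and the Balb/c strain, and they are 8 of the 24 libraries of the series. The other 16 are 10 tumors of the same lines from SCID-beige mice, which lack T and B cells and have defective NK cells, and 6 libraries of the cells in culture. They enter here only where the BALB/c contrast is set beside them. Both lines arose from D2 hyperplastic alveolar nodules of female BALB/c mice, so host and graft share a strain. In both groups the cells were implanted into the fourth inguinal mammary fat pad of female mice aged 8 to 12 weeks, the tumors were collected at the same target volume, and neither group received a drug or carried a transgene by its label. Each group is a single line, so a difference between the groups is a difference between 2 lines and cannot be told apart from a difference between dormancy and growth, and the time each tumor took to reach its size is not used here.

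D2A1 cells proliferate soon after they reach the lung, whereas D2.1 cells stay there as dormant cells, alive but not expanding, for long periods. A mammary tumor in an immunocompetent host is a mixture of tumor cells, fibroblasts, vessels, macrophages and lymphocytes, held in an extracellular matrix that several of these cells secrete. Cytotoxic T cells read peptides on MHC class I, helper T cells read peptides on MHC class II, and regulatory T cells, marked by the transcription factor Foxp3, restrain both. RNA was measured here from whole tumors, so throughout, fewer cells of a type and less RNA per cell cannot be told apart.

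Each library held 15818755 to 18355153 reads counted on genes, so that 3 counts, the level taken as the floor of detection in a library, corresponded to 0.163 to 0.195 CPM, the read count scaled to a common library size, a floor that covers counting error only. The labels describe individual tumors, and the p-values measure the spread between these tumors. Values of the 4 tumors of a group are always given in the order of their replicate numbers, as CPM with library sizes scaled by the trimmed mean of M values (TMM), and a log2 fold change is D2.1 minus D2A1 with its standard error. Libraries differed in how strongly their counts depended on the GC content of genes. The slope of log2 CPM across genes on their GC content, in log2 units per unit of GC fraction, was 3.24, 0.861, 6.15 and 5.35 in the D2.1 tumors and 0.810, -0.0709, 3.90 and 3.09 in the D2A1 tumors. D2.1 replicates 1 and 4 also stood out for genes of muscle, skin and milk. The skeletal muscle genes summed to 509, 80.5, 183 and 106 CPM in the D2.1 tumors and 115, 21.1, 31.9 and 24.05 CPM in the D2A1 tumors, highest in D2.1 replicate 1. The skin keratin and cornified envelope genes summed to 102, 30.4, 48.5 and 339 CPM in the D2.1 tumors and 7.69, 7.98, 9.18 and 10.2 CPM in the D2A1 tumors, highest in D2.1 replicate 4, and the milk protein genes to 753, 199.98, 178 and 181 CPM in the D2.1 tumors and 147, 124, 94.8 and 151 CPM in the D2A1 tumors, highest in D2.1 replicate 1. The adipocyte genes summed to 136 to 1194 CPM in D2.1 and 171 to 580.7 CPM in D2A1 tumors, and of the defining markers Wap was listed at 0 in 7 of the 8 tumors. The part of these tissues in the results was not tested, and counts are given below without D2.1 replicates 1 and 4, and with the GC slope as a covariate, where those move them by over 1.5 times.

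Of 14953 genes tested, 4868 differed between D2.1 and D2A1 tumors (32.6%, edgeR quasi-likelihood test, Benjamini-Hochberg adjusted p under 0.05). These were 2510 genes higher in D2.1 tumors (16.8%) and 2358 lower (15.8%). These percentages are the background for the counts of members below that come from this test. A count from another setting has the background of that setting. The median log2 fold change of all genes tested was -0.02. With the replicate number as a block, 3403 genes were higher (22.8%) and 3713 lower (24.8%), and without D2.1 replicates 1 and 4, 1751 were higher (11.1%) and 1599 lower (10.2%). With the GC slope as a covariate, 3536 of the 14953 genes were higher and 3552 lower. DESeq2 called 3021 higher and 2726 lower. Groups without overlap, in which every D2.1 tumor lay above or below every D2A1 tumor, were found for 17.1% of genes in each direction.

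The genes that differed most by fitted fold change were near or at zero counts in all tumors of 1 line. Col2a1, the collagen of cartilage (chr15:97975602-98004695, GRCm38), was at 33.6, 59.9, 107 and 21.1 CPM in the D2.1 tumors and at 0 counts in every D2A1 tumor, at least 311-fold higher by the mean against the floor of 3 counts per library. Bend5, a gene for a BEN domain protein (chr4:111415006-111460298), was at 17.6, 19.7, 32.4 and 33.8 CPM in the D2.1 tumors and at most 0.0587 CPM in the D2A1 tumors, at least 145-fold higher. In the same way, Cryaa (alpha-crystallin, a chaperone of the eye lens), Lhfpl4 (a transmembrane protein of inhibitory synapses), Slc38a3 (a glutamine transporter), Eya1 and Pax6 (developmental transcription regulators) and Gm11549 were at least 30.2-, 126-, 119-, 61.9-, 59.9- and 43.3-fold higher. Bche, the serum-type cholinesterase, was at 58.02, 63.5, 35.8 and 65.0 CPM against 0.0587, 0.0623, 0.304 and 0.168 CPM, and Robo2, a receptor for Slit guidance cues, was at 70.6, 90.3, 28.7 and 47.4 CPM against 0.294, 0.374, 0 and 0.280 CPM. All 10 of these genes were higher in the D2.1 tumors of SCID-beige mice as well (edgeR, adjusted p under 0.05).

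The largest differences in the other direction included Dlx5, a homeobox factor of bone and craniofacial development (chr6:6877805-6882085). It was at 0 counts in every D2.1 tumor and at 13.2, 9.10, 7.91 and 13.5 CPM in the D2A1 tumors, at least 60.9-fold lower in D2.1. Morc1, a germline silencer of transposable elements, had 1 count in D2.1 replicate 3 and none in the other D2.1 tumors, against 17.7, 20.3, 19.3 and 19.6 CPM in D2A1, at least 107-fold lower. The olfactory receptor gene Olfr1500, the cytochrome Cyp2c55 and the aldo-keto reductase Akr1c12 were at least 29.1-, 49.1- and 33.98-fold lower. These 3 belong to families of near-identical copies, as does Olfr1501, at 0.436, 0, 0 and 0.130 CPM against 74.6, 75.4, 54.9 and 80.1 CPM, so the split of reads between copies is uncertain. Igf2bp1, an oncofetal RNA-binding protein (chr11:95957163-96005940), was at 0.981, 0, 0 and 0.130 CPM in the D2.1 tumors and 78.9, 88.9, 74.6 and 67.5 CPM in the D2A1 tumors. Padi4, which converts arginine to citrulline, was at 0.981, 0, 0.820 and 0.130 CPM against 100.3, 101, 110.3 and 121 CPM. The synaptic genes Rims2 and Jakmip3 were at 0 to 0.234 CPM against 18.8 to 29.4 CPM and 0 to 0.272 CPM against 7.85 to 18.3 CPM. The groups did not overlap for any of these genes, which the rule by which they were chosen required.

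**Figure D1:**
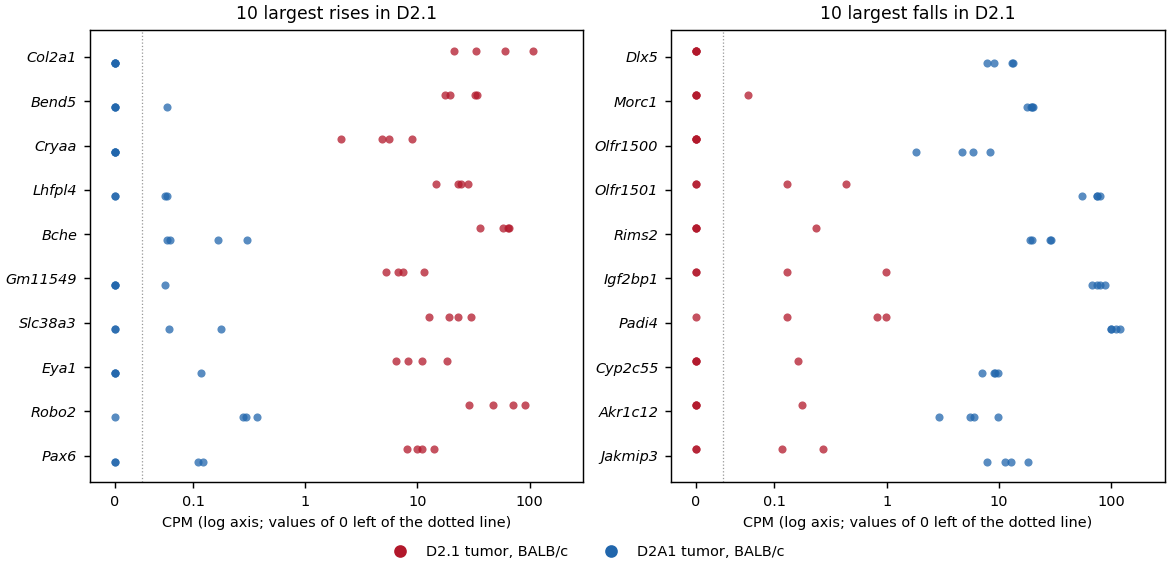
CPM in each tumor (log axis, values of 0 left of the dotted line) of the 10 genes with the largest rise and the 10 with the largest fall by fitted fold change, with D2.1 tumors in red and D2A1 tumors in blue, 4 points each. Col2a1 lies between 21.1 and 107 CPM in D2.1 tumors and at 0 in D2A1 tumors, and Dlx5 lies at 0 in D2.1 tumors and between 7.91 and 13.5 CPM in D2A1 tumors.

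By the absolute difference in CPM, the largest rises were genes of the matrix. Col3a1 was at 7433, 6582, 4338 and 7407 CPM in the D2.1 tumors and 1047, 820.1, 771 and 801 CPM in the D2A1 tumors (log2 fold change 2.91 ± 0.22, adjusted p = 6.9e-06). Col1a1 was at 6567, 4866, 3834 and 5253 CPM in the D2.1 tumors and 1606, 1106, 844 and 1007 CPM in the D2A1 tumors (log2 fold change 2.17 ± 0.24, adjusted p = 9.54e-05). Both encode chains of fibrillar collagens. The groups did not overlap for any gene of this paragraph, which the rule by which they were chosen required. The type VI collagen chains Col6a1 and Col6a2, which form beaded filaments next to cells, followed, with means of 3805 ± 276 against 472 ± 45.9 CPM and 3067 ± 256 against 250.5 ± 13.8 CPM (SD, n = 4), and so did the collagen-binding glycoprotein Sparc, at 4484 ± 841 against 1619 ± 185 CPM. The largest falls in CPM were Spp1 (osteopontin), at 1194 ± 281 against 3630.1 ± 656 CPM, Tubb5 (a beta-tubulin), at 1378 ± 112 against 3133 ± 395 CPM, and Gapdh, at 2098 ± 159 against 3359.6 ± 612 CPM. Gapdh lost its call without D2.1 replicates 1 and 4 (adjusted p = 0.0832). Arhgap23, a GTPase-activating protein, was at 108, 146, 125 and 101 CPM in the D2.1 tumors and 1384, 1159, 1197 and 1451 CPM in the D2A1 tumors (log2 fold change -3.44 ± 0.17, adjusted p = 6.8e-07). Thbs1, the anti-angiogenic glycoprotein thrombospondin 1, was at 89.6, 72.7, 48.5 and 34.2 CPM in the D2.1 tumors and 999, 1366, 536 and 736 CPM in the D2A1 tumors (log2 fold change -3.89 ± 0.38, adjusted p = 3.8e-05).

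Secreted modulators of Wnt signaling were higher in D2.1 tumors where they differed. Dkk3, a secreted glycoprotein of the Dickkopf family that has been linked to immune tolerance (chr7:112116017-112159057), was at 296, 246, 253 and 268 CPM in the D2.1 tumors and 11.6, 5.98, 7.60 and 9.28 CPM in the D2A1 tumors. The groups were about 30.8-fold apart with no overlap (log2 fold change 4.95 ± 0.22, adjusted p = 4.95e-07), and in the deposited length-corrected unit the means were 77.2 ± 7.60 FPKM in D2.1 and 2.64 ± 0.812 FPKM in D2A1 tumors (SD, n = 4). Sfrp2, a secreted Frizzled-related protein made by fibroblasts among other cells, was at 370.2, 515, 201 and 356 CPM in the D2.1 tumors and 21.7, 13.6, 17.5 and 12.4 CPM in the D2A1 tumors (log2 fold change 4.47 ± 0.31, adjusted p = 5.12e-06). Its relative Sfrp1 overlapped between the groups, at 3.29 to 21.5 CPM against 8.04 to 14.03 CPM. Of the 18 members of the list, 9 passed the filter on low counts and 4 of these were higher, the others being Dkkl1 and the Wnt-binding inhibitor Wif1 (log2 fold changes 2.94 ± 0.63 and 2.66 ± 0.53), and none was lower. Dkkl1 had an adjusted p of 0.0506 without D2.1 replicates 1 and 4.

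Epithelial genes moved in both directions, with the share higher near that of all genes tested (16.8%) and the share lower under it (15.8%). Cdh1, the adhesion protein E-cadherin, was at 31.0, 16.5, 23.7 and 25.7 CPM in the D2.1 tumors and 5.81, 8.10, 6.45 and 8.39 CPM in the D2A1 tumors, and its groups did not overlap (log2 fold change 1.75 ± 0.24, adjusted p = 0.000401). The desmosomal plakophilin Pkp3 was at 33.4, 29.8, 37.3 and 29.0 CPM in the D2.1 tumors and 9.16, 8.41, 12.7 and 12.6 CPM in the D2A1 tumors (log2 fold change 1.59 ± 0.21, adjusted p = 0.000242). Krt18, a keratin of simple epithelia, went the other way, with 58.6, 9.45, 26.0 and 33.3 CPM in the D2.1 tumors and 305, 303, 421 and 399 CPM in the D2A1 tumors (log2 fold change -3.49 ± 0.45, adjusted p = 0.000261), while its partner Krt8 was higher (log2 fold change 0.90 ± 0.19, adjusted p = 0.00495). Epcam overlapped between the groups, at 24.1, 3.35, 5.74 and 11.9 CPM against 2.29, 2.68, 4.68 and 5.87 CPM, and its adjusted p was 0.0641, but 0.0150 without D2.1 replicate 2. Of the 24 epithelial genes tested, 4 were higher and 1 was lower, with a median of 0.73, and 8 were higher without D2.1 replicate 2. The fourth gene, the junction protein Tjp3, kept its call only when D2.1 replicate 2 or 4 or D2A1 replicate 4 was the tumor left out, and otherwise had an adjusted p of 0.0861 to 0.101. It was 0.153 without D2.1 replicates 1 and 4, 0.0637 with the GC slope, 0.0641 with no filter and 0.053 with a minimum of 10 counts in total. DESeq2 called 7 of the genes higher, among them Epcam (0.019).

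Among mesenchymal genes, Vim, the intermediate filament vimentin, was at 7240.0, 9244, 6785 and 6866 CPM in the D2.1 tumors and 4485, 4878, 4884 and 4679 CPM in the D2A1 tumors (log2 fold change 0.67 ± 0.16, adjusted p = 0.00796). Mmp9, a secreted gelatinase, was at 457, 441, 432 and 374 CPM in the D2.1 tumors and 63.2, 44.5, 55.5 and 42.002 CPM in the D2A1 tumors (log2 fold change 3.05 ± 0.17, adjusted p = 1.22e-06). The receptor Notch1 was at 125, 213.2, 73.4 and 50.2 CPM in the D2.1 tumors and 30.3, 34.2, 12.7 and 19.3 CPM in the D2A1 tumors (log2 fold change 2.26 ± 0.46, adjusted p = 0.0038). All of these groups were separate. The repressor of E-cadherin Zeb1 overlapped, at 48.2, 48.3, 36.2 and 22.4 CPM against 32.1, 39.1, 14.7 and 15.6 CPM (adjusted p = 0.222, and 0.0096 with the replicate block). Of 15 mesenchymal genes tested, 7 were higher, and 1, the bHLH factor Twist2, was lower (log2 fold change -2.56 ± 0.60, adjusted p = 0.00832). With the GC slope 11 were higher, Zeb1 among them (adjusted p = 0.00404).

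Genes of mammary lineages included some of the clearest differences. Sox9, a factor of luminal progenitors and of cartilage, was at 154, 138, 136 and 134 CPM in the D2.1 tumors and 12.8, 9.04, 13.99 and 10.9 CPM in the D2A1 tumors (log2 fold change 3.59 ± 0.18, adjusted p = 6.8e-07). Ptn, the heparin-binding growth factor pleiotrophin, was at 266, 194, 215.1 and 306 CPM in the D2.1 tumors and 3.99, 4.61, 7.66 and 8.17 CPM in the D2A1 tumors (log2 fold change 5.33 ± 0.29, adjusted p = 1.17e-06). The estrogen receptor Esr1 was at 8.17, 9.82, 6.15 and 7.47 CPM in the D2.1 tumors and 1.41, 2.06, 2.37 and 2.18 CPM in the D2A1 tumors (log2 fold change 1.98 ± 0.30, adjusted p = 0.00062). Krt14, a keratin of basal mammary cells and of skin, was at 25.2, 27.1, 40.8 and 142 CPM in the D2.1 tumors and 1.47, 1.56, 2.07 and 1.90 CPM in the D2A1 tumors, and its highest value was in the tumor with the most skin transcripts (log2 fold change 5.06 ± 0.61, adjusted p = 0.00016). Krt5, its partner, stood at 17.5, 1.22, 3.93 and 40.7 CPM against 1.23, 1.496, 3.04 and 2.68 CPM, and the groups overlapped. Its adjusted p was 0.0287, but 0.113 with the block, 0.813 without D2.1 replicates 1 and 4, and 0.0519 to 0.0986 when any tumor other than D2.1 replicate 2 or 3 was left out. Procr, a receptor for protein C that marks a mammary stem cell population, was lower, at 8.23, 4.51, 7.21 and 10.2 CPM in the D2.1 tumors and 31.7, 27.98, 36.98 and 41.2 CPM in the D2A1 tumors (log2 fold change -2.19 ± 0.26, adjusted p = 0.000156). Of 25 genes tested, 14 were higher and 2 lower, with a median of 1.98. The other lower gene was the growth factor Areg (adjusted p = 0.0399), which lost its call without D2.1 replicate 1, 2 or 3 or D2A1 replicate 1, 3 or 4, with adjusted p of 0.0714 to 0.0977. It was also lost with no filter (0.0536) and in a fit of all 18 tumors (0.22), and Krt5 with no filter (0.122) and with the GC slope (0.245). The count of lower genes was 1 without D2.1 replicate 2 or 3 or D2A1 replicate 1, 3 or 4, and without D2.1 replicates 1 and 4 11 were higher and 3 lower.

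Cartilage and bone genes each held members that were higher and members that were lower. The higher cartilage genes were Col2a1, the matrix protein Matn4, at 44.5, 33.7, 30.8 and 48.5 CPM against 0.294, 0.0623, 0.182 and 0.559 CPM, the pentameric matrix protein Comp, and the Sox9 partner Sox5, at 4.79, 11.2, 7.85 and 6.17 CPM against 0.235, 0.561, 0 and 0.503 CPM. Comp had an adjusted p of 0.103 without D2.1 replicates 1 and 4. Acan, the main proteoglycan of cartilage, had at most 3 counts in any of the 8 tumors, so no fold is given. Col10a1 and Col11a2, of hypertrophic and fibrillar cartilage matrix, were lower in D2.1 (log2 fold change -3.37 ± 0.56, adjusted p = 0.00117 and log2 fold change -1.57 ± 0.29, adjusted p = 0.00205). In all, 4 of the 10 cartilage genes tested were higher and 2 lower. Of 12 bone genes tested, 4 were lower and 1 higher. Ibsp, bone sialoprotein, was at 2.34, 0, 0.176 and 0.325 CPM in the D2.1 tumors and 19.4, 46.1, 41.8 and 22.2 CPM in the D2A1 tumors (log2 fold change -5.45 ± 0.86, adjusted p = 0.00088), and its D2.1 values other than replicate 1 were near the floor. The bone morphogen Bmp2 was the gene that rose, at 17.6, 27.6, 11.02 and 16.96 CPM in the D2.1 tumors and 2.41, 3.99, 2.68 and 2.96 CPM in the D2A1 tumors (log2 fold change 2.60 ± 0.32, adjusted p = 0.000185). Runx2, the master factor of osteoblasts, overlapped, at 42.3 to 84.99 CPM against 40.9 to 83.1 CPM. The remaining lower genes were Dlx5 and Spp1, given above, and the homeobox gene Msx1 (log2 fold change -2.51 ± 0.63, adjusted p = 0.0114).

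Among oncofetal and imprinted genes, Igf2bp1 and the imprinted hydrolase gene Mest were lower, Mest at 7.57, 6.10, 2.75 and 4.55 CPM against 32.5, 30.9, 18.004 and 23.9 CPM (log2 fold change -2.33 ± 0.33, adjusted p = 0.000453), and Peg13 and H19 were higher. Peg13, an imprinted noncoding RNA, was at 76.98, 67.7, 71.6 and 66.9 CPM in the D2.1 tumors and 5.81, 5.30, 5.17 and 6.38 CPM in the D2A1 tumors (log2 fold change 3.64 ± 0.17, adjusted p = 4.95e-07). H19 overlapped between groups, at 7.07 to 27.6 CPM against 2.93 to 8.34 CPM (adjusted p = 0.00892, and 0.119 without D2.1 replicates 1 and 4). The other 9 of the 13 genes tested did not pass the threshold, and the shares called in each direction were near those of all genes tested. With the block 2 genes were higher and 4 lower, and 4 were lower without D2.1 replicates 1 and 4. Hmga2, a chromatin protein of embryonic cells, was at 0 counts in D2.1 and at most 0.973 CPM in D2A1 tumors, and it did not pass the filter.

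Fibrillar collagens and the enzymes that modify them were mostly higher in D2.1 tumors. Beyond Col1a1 and Col3a1, the minor fibrillar collagen Col5a3 was at 1062, 1156, 1241 and 1317 CPM in the D2.1 tumors and 87.6, 66.4, 61.4 and 60.3 CPM in the D2A1 tumors (log2 fold change 4.11 ± 0.18, adjusted p = 4.84e-07). Col27a1 was at 218.5, 184, 266 and 168 CPM in the D2.1 tumors and 12.3, 9.54, 8.82 and 10.1 CPM in the D2A1 tumors (log2 fold change 4.36 ± 0.21, adjusted p = 5.97e-07). Of 23 genes tested, 14 were higher and 1, the lysyl hydroxylase Plod2, was lower (log2 fold change -0.88 ± 0.24, adjusted p = 0.0172), with a median of 0.79. Plod2 lost its call without D2.1 replicate 3 (adjusted p = 0.0508), without D2A1 replicate 1 (0.0522) and in a fit of all 18 tumors (0.0715), and 3 genes were lower without D2.1 replicate 1. Without D2.1 replicates 1 and 4, 11 were higher and 4 lower, and with the block 2 were lower.

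Basement membrane genes leaned the opposite way in their calls, though their median was only -0.20. Their sums overlapped, at 3535 to 4457 CPM in D2.1 and 3410 to 4563 CPM in D2A1 tumors. Col4a1, the main collagen of basement membranes, was at 206, 162, 95.2 and 132 CPM in the D2.1 tumors and 556, 702, 463 and 484 CPM in the D2A1 tumors (log2 fold change -1.89 ± 0.24, adjusted p = 0.000242). Nid2, which links laminin to collagen IV, was at 5.39, 6.83, 2.23 and 2.73 CPM in the D2.1 tumors and 36.2, 39.4, 20.4 and 18.8 CPM in the D2A1 tumors (log2 fold change -2.74 ± 0.41, adjusted p = 0.000636), and the laminin chain Lama5 was at 79.001, 90.4, 107 and 82.4 CPM in the D2.1 tumors and 555, 486, 337 and 364 CPM in the D2A1 tumors (log2 fold change -2.28 ± 0.19, adjusted p = 1.57e-05). None of these groups overlapped. The laminin chain Lama4 and the collagen Col18a1, the precursor of endostatin, were higher, at 234, 335, 241 and 305 CPM against 51.1, 68.4, 49.3 and 47.1 CPM and 1423, 1504, 1383 and 1288 CPM against 516, 655, 641 and 582.8 CPM (log2 fold change 2.37 ± 0.18, adjusted p = 8.86e-06 and log2 fold change 1.22 ± 0.14, adjusted p = 0.0001). Lama1 overlapped, at 0 to 2.34 CPM against 0.873 to 2.07 CPM. Counts were 4 higher and 8 lower of 21 tested, the other higher genes being Lamb2 and the perlecan gene Hspg2, whose adjusted p was 0.0595 to 0.104 without D2.1 replicate 2 or 3 or D2A1 replicate 1, 3 or 4, and without D2.1 replicates 1 and 4 they were 2 higher and 9 lower, with adjusted p of 0.0539 for Lamb2 and 0.0797 for Hspg2. With the GC slope 7 were higher and 7 lower, so the lean was absent in that setting.

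Of 30 matricellular and other matrix glycoproteins tested, 13 were higher and 5 lower. Fbln5, which assembles elastic fibers, was at 185, 199, 139 and 182 CPM in the D2.1 tumors and 9.40, 8.48, 10.6 and 8.33 CPM in the D2A1 tumors (log2 fold change 4.26 ± 0.18, adjusted p = 4.84e-07). Spon2 was at 34.3, 74.9, 79.9 and 73.5 CPM in the D2.1 tumors and 1.23, 1.18, 0.547 and 1.85 CPM in the D2A1 tumors (log2 fold change 5.75 ± 0.40, adjusted p = 5.12e-06), with D2.1 replicate 1 the lowest of its group. Ccn1, a target of the YAP coactivator, was lower together with Thbs1, at 60.5, 56.5, 75.4 and 63.8 CPM in the D2.1 tumors and 244, 265, 300.3 and 245 CPM in the D2A1 tumors (log2 fold change -2.04 ± 0.15, adjusted p = 5.3e-06), the other lower genes being Ccn2, Thbs3 and Fbln1. Fn1, fibronectin, overlapped, at 4167, 4039, 2877 and 3531 CPM against 2943, 3665, 1699 and 1776 CPM (adjusted p = 0.142, 0.00962 with the block, and 0.0401 without D2A1 replicate 2 and 0.00185 with the GC slope). Without D2.1 replicate 3, 3 genes of the list were lower, since Ccn2 (adjusted p = 0.0501) and Fbln1 (0.0616) lost their calls, and Fbln1 also did without D2.1 replicate 4 or D2A1 replicate 1 or 3 (0.0587 to 0.0736).

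In the TGF-beta family the ligands Tgfb1 and Tgfb2 overlapped between the groups, at 220.1 to 319 CPM against 198 to 272 CPM and 40.4 to 78.3 CPM against 66.6 to 141 CPM. The nodal antagonist Lefty1 was higher, at 6.81, 5.24, 13.2 and 12.8 CPM in the D2.1 tumors and 0.705, 0.623, 1.16 and 1.17 CPM in the D2A1 tumors (log2 fold change 3.37 ± 0.42, adjusted p = 0.000201). Of the latent TGF-beta binding proteins, Ltbp2 was higher and Ltbp1 lower, at 309.8, 265, 302 and 346 CPM against 62.1, 45.7, 47.1 and 43.6 CPM and 37.3, 29.8, 26.7 and 26.8 CPM against 141, 161, 94.1 and 124 CPM (log2 fold change 2.62 ± 0.16, adjusted p = 2.14e-06 and log2 fold change -2.11 ± 0.20, adjusted p = 3.48e-05). The BMP antagonist Grem1 was at 1.14, 0.427, 0 and 2.40 CPM against 16.03, 8.35, 5.17 and 4.25 CPM (log2 fold change -3.09 ± 0.86, adjusted p = 0.0188), and its adjusted p was 0.0623 without D2A1 replicate 1 and 0.0882 with the GC slope. Of 26 genes tested, 8 were higher and 5, among them Bambi and Smad7, were lower, and the lower count was 3 without D2.1 replicate 3, 2 without D2A1 replicate 1 and 3 without D2A1 replicate 4. Bambi passed in the omission of D2.1 replicate 4 or D2A1 replicate 2 and not in the others (adjusted p = 0.0517 to 0.0772), and Smad7 in that of D2.1 replicate 1 or 2 or D2A1 replicate 3 and not in the others (0.0907 to 0.111). There were 6 higher and 4 lower without D2.1 replicates 1 and 4, where Smad7 was lost (0.0842).

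**Figure D2:**
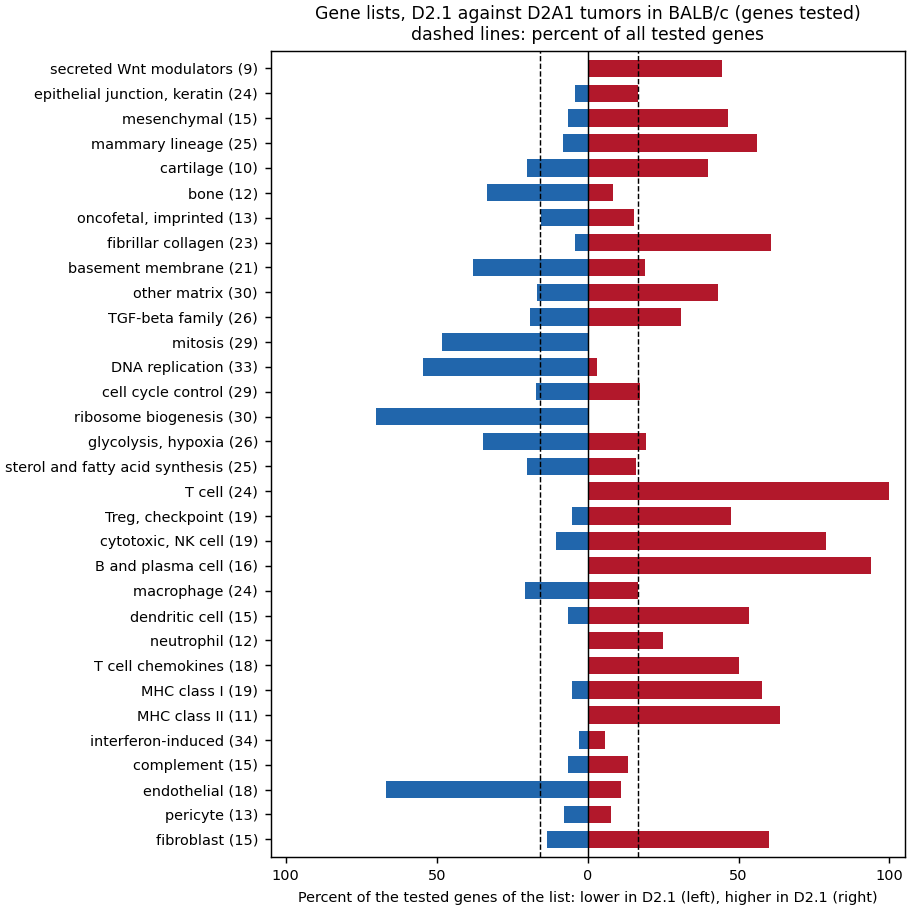
Percent of the tested genes of each list that were higher (red bars, right) or lower (blue bars, left) in D2.1 tumors, with the number tested beside the list and dashed lines at the percent of all tested genes (16.8% higher and 15.8% lower). The T cell and B cell bars reach farthest to the right, and the mitosis, DNA replication, ribosome biogenesis and endothelial bars farthest to the left.

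Of the genes of cell division, those past the threshold were lower in D2.1 tumors, by small amounts. Ccnb1, cyclin B1, was at 53.7, 59.4, 46.2 and 57.5 CPM in the D2.1 tumors and 108, 107, 95.7 and 86.4 CPM in the D2A1 tumors (log2 fold change -0.87 ± 0.15, adjusted p = 0.00137). Ube2c, a ubiquitin carrier of the anaphase-promoting complex, was at 60.7, 50.7, 85.3 and 89.2 CPM in the D2.1 tumors and 159, 133, 209.2 and 143 CPM in the D2A1 tumors (log2 fold change -1.17 ± 0.22, adjusted p = 0.00249). Mki67, the proliferation antigen, did not pass the threshold, at 199.5, 321, 194 and 169.6 CPM in the D2.1 tumors and 218.5, 290.1, 143 and 126 CPM in the D2A1 tumors (log2 fold change 0.19 ± 0.29, adjusted p = 0.659). Of 29 mitosis genes tested, 14 were lower and none was higher, with a median of -0.57. With the block 25 were lower, and without D2.1 replicates 1 and 4 only 6 were. The count fell to 9 without D2.1 replicate 1, 8 without D2.1 replicate 3, 7 without D2A1 replicate 1 and 9 without D2A1 replicate 2. With the GC slope 16 were lower and 2 higher, Mki67 among the higher (log2 fold change 0.61, adjusted p = 0.0109).

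The promoters of 3 mitosis genes show letters that many of them share. Cdk1, Plk1 and Aurka, kinases that drive entry into and passage through mitosis, were chosen after their values were seen. The sequences are RefSeq promoters on GRCm38.p6, from 250 bases before to 50 after the start, written on the strand of the gene, with TTTGAA (the core of the cell cycle homology region) and CCAAT (the NF-Y box), on either strand, in capitals.

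Cdk1 (chr10:69352863-69353162, minus strand): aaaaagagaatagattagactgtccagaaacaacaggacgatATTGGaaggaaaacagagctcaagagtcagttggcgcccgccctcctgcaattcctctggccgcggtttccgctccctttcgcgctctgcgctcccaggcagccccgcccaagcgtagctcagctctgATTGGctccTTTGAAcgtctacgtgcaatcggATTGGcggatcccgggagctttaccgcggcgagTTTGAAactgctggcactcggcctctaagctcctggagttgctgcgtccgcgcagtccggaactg

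Plk1 (chr7:122159185-122159484, plus strand): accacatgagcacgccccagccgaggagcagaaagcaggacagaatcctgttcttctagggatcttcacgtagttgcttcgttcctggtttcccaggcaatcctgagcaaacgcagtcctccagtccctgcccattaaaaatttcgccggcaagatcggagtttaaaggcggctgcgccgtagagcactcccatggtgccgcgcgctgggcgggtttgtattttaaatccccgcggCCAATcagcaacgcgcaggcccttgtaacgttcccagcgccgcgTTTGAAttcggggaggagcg

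Aurka (chr2:172370521-172370820, minus strand): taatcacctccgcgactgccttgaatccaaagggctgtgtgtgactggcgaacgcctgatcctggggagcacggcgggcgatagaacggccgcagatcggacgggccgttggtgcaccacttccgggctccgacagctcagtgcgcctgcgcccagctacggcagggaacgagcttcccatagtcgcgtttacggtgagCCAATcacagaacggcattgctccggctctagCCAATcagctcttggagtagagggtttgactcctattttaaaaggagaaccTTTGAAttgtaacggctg

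Cdk1 was at 51.3, 50.2, 73.7 and 71.4 CPM against 86.5, 77.6, 101 and 95.0 CPM (log2 fold change -0.55 ± 0.18, adjusted p = 0.0375), Plk1 at 37.3, 40.3, 49.8 and 44.97 CPM against 69.6, 73.04, 83.2 and 69.2 CPM (log2 fold change -0.78 ± 0.15, adjusted p = 0.0032) and Aurka at 36.0, 36.0, 43.4 and 45.6 CPM against 71.8, 79.2, 93.5 and 76.9 CPM (log2 fold change -0.998 ± 0.16, adjusted p = 0.000855). Among the omissions of a single tumor the highest adjusted p was 0.106 for Cdk1, 0.0126 for Plk1 and 0.00403 for Aurka. The call for Cdk1 was lost without D2.1 replicate 1 (0.106) or 2 (0.0811), without D2A1 replicate 1 (0.0643), 3 (0.0715) or 4 (0.0724), and without D2.1 replicates 1 and 4 (0.126). In Cdk1, TTTGAA lay at -71 to -66 and -15 to -10 from the start, in Plk1 at 30 to 35 and in Aurka at 32 to 37. TTTGAA or its reverse TTCAAA was present in a promoter of 19 of the 25 mitosis genes with a listed promoter (76%), against 20.2% of all 27025 genes, and CCAAT or ATTGG in 19 of 25 as well, against 41.1%. Of the 12 mitosis genes that were lower and had a promoter listed, 9 held TTTGAA. These are matches of letters and say nothing of binding.

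DNA replication genes were lower in 18 of 33 cases tested and higher in 1, with a median of -0.75. Rrm2, the regulated subunit of ribonucleotide reductase, was at 35.6, 39.1, 30.7 and 35.0 CPM in the D2.1 tumors and 144, 141, 106 and 119 CPM in the D2A1 tumors (log2 fold change -1.86 ± 0.16, adjusted p = 1.6e-05). Pcna, the sliding clamp of DNA polymerases, was at 95.8, 92.9, 108 and 133 CPM in the D2.1 tumors and 185, 170.0, 193 and 199 CPM in the D2A1 tumors (log2 fold change -0.80 ± 0.15, adjusted p = 0.00229). Mcm2, of the replicative helicase, was at 90.1, 90.4, 86.1 and 89.0 CPM in the D2.1 tumors and 139.8, 157, 153 and 136 CPM in the D2A1 tumors (log2 fold change -0.72 ± 0.12, adjusted p = 0.00134). The polymerase alpha subunit Pola2 was lower (log2 fold change -1.25 ± 0.19, adjusted p = 0.000567). None of the groups of these genes overlapped. The higher gene was Orc6 (adjusted p = 0.0322), whose groups overlapped and whose call was lost without D2.1 replicate 3 or 4 or D2A1 replicate 1, 2 or 4 (0.0567 to 0.0848). Without D2.1 replicates 1 and 4, 17 genes were lower and Orc6 was lost (0.0564). DESeq2 called 2 genes higher.

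Among regulators of the cell cycle, Myc was lower and an antagonist of it higher. Myc, the proto-oncogene that drives growth and ribosome synthesis, was at 71.5, 99.3, 61.1 and 55.7 CPM in the D2.1 tumors and 352, 334, 267 and 245 CPM in the D2A1 tumors, about 4.17-fold lower with no overlap (log2 fold change -2.06 ± 0.21, adjusted p = 5.41e-05). Mxd4, which competes with Myc for its partner Max, was at 277, 296, 274.1 and 327 CPM in the D2.1 tumors and 82.9, 98.7, 115 and 103 CPM in the D2A1 tumors (log2 fold change 1.55 ± 0.14, adjusted p = 2.46e-05). Cyclin E1, Ccne1, and cyclin D2, Ccnd2, were lower, at 7.79, 4.15, 6.09 and 7.54 CPM against 18.3, 16.1, 22.9 and 16.3 CPM and 87.4, 55.1, 48.8 and 49.3 CPM against 159, 230.2, 103 and 114 CPM (log2 fold change -1.52 ± 0.25, adjusted p = 0.00121 and log2 fold change -1.33 ± 0.29, adjusted p = 0.00522). Rbl2, the pocket protein p130 of quiescent cells, was higher, at 65.4, 93.7, 63.3 and 42.2 CPM against 28.8, 32.5, 15.1 and 22.04 CPM (log2 fold change 1.43 ± 0.29, adjusted p = 0.00379). Cdkn1b, the inhibitor p27, was at 111, 128, 101 and 81.9 CPM in the D2.1 tumors and 78.7, 68.6, 67.6 and 75.8 CPM in the D2A1 tumors (log2 fold change 0.54 ± 0.16, adjusted p = 0.0277), and although the groups did not overlap, its adjusted p was 0.0503 to 0.0791 without D2.1 replicate 1, 2 or 3 or D2A1 replicate 2, 3 or 4. Of 29 genes tested, 5 were higher, with Mxd1 and E2f2 besides those named, and 5 lower, with Cdkn1a and E2f8, and E2f2 passed in the omission of D2.1 replicate 1 and in no other (adjusted p = 0.0512 to 0.0751). The list had a median of 0.03, and its counts of 5 higher and 5 lower were near the shares of all genes tested (16.8% and 15.8%). With the block or with the GC slope 8 were higher, and 3 were higher with no filter, where Cdkn1b had an adjusted p of 0.0553, and without D2.1 replicate 2 or 3 or D2A1 replicate 2, 3 or 4. E2f2 and E2f8 were lost without D2.1 replicates 1 and 4 (0.105 and 0.109).

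The nucleolar genes of ribosome biogenesis, many of which are textbook Myc targets, were lower in 21 of 30 cases and higher in none, with a median of -0.85. Ncl, nucleolin, was at 595, 557, 462 and 507 CPM in the D2.1 tumors and 1024, 1357, 1079 and 969.6 CPM in the D2A1 tumors (log2 fold change -1.06 ± 0.16, adjusted p = 0.000552). Npm1, nucleophosmin, was at 624, 531, 467 and 577 CPM in the D2.1 tumors and 1052, 1144, 1315 and 1175 CPM in the D2A1 tumors (log2 fold change -1.09 ± 0.15, adjusted p = 0.000303). Nop56, of the box C/D ribonucleoproteins, was at 95.5, 102, 142 and 136 CPM in the D2.1 tumors and 288, 281, 355 and 320.5 CPM in the D2A1 tumors (log2 fold change -1.39 ± 0.17, adjusted p = 0.000166). Wdr12, needed for the large subunit, was lower too (log2 fold change -1.41 ± 0.17, adjusted p = 0.000154). The groups were separate for each. CACGTG, the E-box that Myc and Max can bind, was found in the promoter of 6 of 26 of these genes (23.1%) against 8.09% of all genes, in 3 of the 18 that were lower and had a promoter listed (16.7%), and in 4 of 26 DNA replication genes (15.4%). Without D2.1 replicates 1 and 4, 16 genes of the list were lower.

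Genes of glycolysis and the hypoxia response moved both ways. Slc16a3, the lactate exporter MCT4, was at 345, 251, 361 and 304 CPM in the D2.1 tumors and 48.6, 36.9, 41.5 and 42.2 CPM in the D2A1 tumors (log2 fold change 2.90 ± 0.17, adjusted p = 1.24e-06). Car9, a carbonic anhydrase induced by hypoxia, was at 129, 119, 203 and 83.8 CPM in the D2.1 tumors and 18.3, 8.35, 11.6 and 24.6 CPM in the D2A1 tumors (log2 fold change 3.09 ± 0.37, adjusted p = 0.000168). Against these, the glucose transporter Slc2a1 was at 94.6, 107, 103 and 88.5 CPM in the D2.1 tumors and 240.2, 141, 197 and 148 CPM in the D2A1 tumors (log2 fold change -0.88 ± 0.18, adjusted p = 0.00447), and the hexokinase Hk2 was lower with overlap, at 57.2, 33.96, 31.3 and 26.1 CPM against 99.5, 99.4, 68.2 and 56.8 CPM (log2 fold change -1.12 ± 0.28, adjusted p = 0.0106). Vegfa was at 163.1, 133, 144 and 81.5 CPM against 363, 215.4, 184 and 200.2 CPM (log2 fold change -0.88 ± 0.26, adjusted p = 0.0254) and lost its call without D2.1 replicate 4 (adjusted p = 0.0525) and without D2A1 replicate 1 (0.0662). Of 26 genes tested, 5 were higher (Hk1, Ndrg1 and Pfkfb3 besides these) and 9 lower, 4 were lower without D2.1 replicate 4 or without D2A1 replicate 1, and without D2.1 replicates 1 and 4 together 4 were higher and 1 lower. Slc2a1 had an adjusted p of 0.0588 in that setting, Ndrg1 0.0576 and Vegfa 0.0804. Vegfa was also lost with the GC slope (0.0817), and 5 genes were lower in a fit of all 18 tumors.

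Enzymes of sterol and fatty acid synthesis went both ways, at shares near those of all genes tested (16.8% higher and 15.8% lower). Mvd, the mevalonate pathway enzyme that makes isopentenyl diphosphate, was at 231, 236, 533 and 495 CPM in the D2.1 tumors and 19.8, 16.6, 32.6 and 29.1 CPM in the D2A1 tumors (log2 fold change 3.93 ± 0.36, adjusted p = 2.58e-05). Sqle, squalene epoxidase, was at 33.8, 36.2, 35.0 and 41.1 CPM in the D2.1 tumors and 152, 155, 116 and 125 CPM in the D2A1 tumors (log2 fold change -1.91 ± 0.16, adjusted p = 1.18e-05), and Cyp51, of the steps after it, was lower as well (log2 fold change -1.51 ± 0.18, adjusted p = 0.000145). Acly, which supplies cytosolic acetyl-CoA, was at 838, 982, 758 and 473 CPM in the D2.1 tumors and 205, 237, 161 and 179 CPM in the D2A1 tumors (log2 fold change 1.96 ± 0.23, adjusted p = 0.000131). Fasn, the fatty acid synthase, overlapped, at 256 to 616 CPM against 382 to 522 CPM. The list of 25 held 4 higher genes, with Dhcr7 and Srebf2, and 5 lower genes, among them Sc5d and Msmo1, 4 and 11 with the block, 8 lower with the GC slope, and 2 higher without D2A1 replicate 1. Dhcr7 lost its call without D2.1 replicate 2 or 3 or D2A1 replicate 1, 2 or 3 (adjusted p = 0.0522 to 0.0794), and Srebf2 without D2A1 replicate 1 (0.0585) or 4 (0.0528).

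Lymphocyte transcripts were higher in D2.1 tumors. The 24 genes of the T cell list summed to 498, 310.0, 586.3 and 636 CPM in the D2.1 tumors and 136, 92.3, 98.8 and 115 CPM in the D2A1 tumors, so that the lowest D2.1 tumor lay above the highest D2A1 tumor. All 24 were tested and all 24 were higher, with a median of 3.31, and 24 were with the block and 21 without D2.1 replicates 1 and 4. Cd3e, a chain of the T cell receptor complex, was at 17.2, 8.05, 22.97 and 20.9 CPM in the D2.1 tumors and 3.70, 0.748, 1.03 and 2.85 CPM in the D2A1 tumors (log2 fold change 3.04 ± 0.53, adjusted p = 0.00154). Cd4, the coreceptor of helper and regulatory T cells, was at 28.7, 15.2, 15.002 and 35.2 CPM in the D2.1 tumors and 1.17, 0.997, 1.46 and 1.45 CPM in the D2A1 tumors (log2 fold change 4.20 ± 0.36, adjusted p = 1.81e-05), and Cd8a, that of cytotoxic T cells, was at 15.8, 9.999, 47.9 and 27.7 CPM in the D2.1 tumors and 8.63, 1.56, 1.09 and 5.93 CPM in the D2A1 tumors (log2 fold change 2.55 ± 0.68, adjusted p = 0.0152). Cd2, an adhesion receptor of T and NK cells, was at 17.2, 12.6, 18.05 and 32.6 CPM in the D2.1 tumors and 0.998, 0.623, 0.730 and 0.727 CPM in the D2A1 tumors (log2 fold change 4.69 ± 0.37, adjusted p = 1.01e-05). None of these groups overlapped. Cd8a lost its call with the GC slope (log2 fold change 1.79, adjusted p = 0.157) and with no filter (0.0635). D2.1 replicate 2 was the lowest of its group for Cd3e, Cd8a and Cd2. The lists of lymphocyte genes were counted over the genes that passed the filter, which many did through the D2.1 tumors alone, so the sums over the whole lists are given with them. In culture, without a host, the T cell list summed to 62.98 to 84.6 CPM in D2.1 and 8.20 to 15.4 CPM in D2A1 libraries, with 2 of the 3 genes tested higher.

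Foxp3, the factor that defines regulatory T cells, was at 7.63, 6.46, 8.20 and 7.67 CPM in the D2.1 tumors and 1.17, 0.873, 0.547 and 1.96 CPM in the D2A1 tumors (log2 fold change 2.71 ± 0.39, adjusted p = 0.000529). Ctla4, an inhibitory receptor of activated and regulatory T cells, was at 3.87, 0.732, 2.11 and 2.73 CPM against 0.763, 0.0623, 0.365 and 0.839 CPM and overlapped. Its adjusted p of 0.0355 became 0.0570 to 0.0991 without D2.1 replicate 1, 3 or 4 or D2A1 replicate 1, 2 or 3, 0.0755 with the GC slope, and 0.279 without D2.1 replicates 1 and 4. Tnfrsf18, the receptor GITR, was at 3.49, 4.45, 6.86 and 9.62 CPM in the D2.1 tumors and 1.59, 0.686, 0.243 and 1.85 CPM in the D2A1 tumors (log2 fold change 2.47 ± 0.58, adjusted p = 0.00824). Lag3, an inhibitory receptor for MHC class II, was at 18.4, 9.08, 21.4 and 15.9 CPM in the D2.1 tumors and 3.23, 2.99, 3.53 and 4.19 CPM in the D2A1 tumors (log2 fold change 2.21 ± 0.30, adjusted p = 0.000329). Nt5e, the ectoenzyme CD73 that makes adenosine and that tumor cells also carry, was lower, at 55.5, 40.4, 41.2 and 47.8 CPM in the D2.1 tumors and 257, 282, 139.6 and 155 CPM in the D2A1 tumors (log2 fold change -2.17 ± 0.25, adjusted p = 0.000113). Of 19 regulatory and checkpoint genes tested, 9 were higher and 1 lower, with a median of 1.67, and 6 were higher without D2.1 replicates 1 and 4. The 20 listed genes summed to 344, 258, 333 and 278 CPM in the D2.1 tumors and 459, 431, 271 and 332 CPM in the D2A1 tumors, so that the sums overlapped and 2 D2A1 tumors lay above all D2.1 tumors. In the sum Nt5e counts with its higher level in D2A1 tumors, and 2 genes were lower without D2.1 replicate 3, with the block and with the GC slope. The inhibitory receptor Pdcd1 (PD-1) and its ligand Cd274 (PD-L1) did not pass the threshold (1.38 ± 0.71 and -0.27 ± 0.34, adjusted p = 0.166 and 0.588), and both were named after their values were seen.

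Cytotoxic granule and NK cell genes showed wide gaps. Ncr1, an activating receptor of NK cells, was at 18.03, 20.4, 24.9 and 25.6 CPM in the D2.1 tumors and 0.470, 0, 0.182 and 1.01 CPM in the D2A1 tumors (log2 fold change 5.69 ± 0.64, adjusted p = 0.0001). Prf1, perforin, was at 21.4, 19.3, 27.3 and 21.6 CPM in the D2.1 tumors and 1.29, 0.125, 0.182 and 4.36 CPM in the D2A1 tumors (log2 fold change 3.89 ± 0.80, adjusted p = 0.00418). Gzmb, granzyme B, was at 11.3, 15.1, 10.5 and 13.97 CPM in the D2.1 tumors and 3.58, 1.37, 0.669 and 1.68 CPM in the D2A1 tumors (log2 fold change 2.80 ± 0.44, adjusted p = 0.000934). The receptor gene Klrb1c, of a family of close copies, was at 5.61 to 10.9 CPM against 0 to 0.895 CPM (log2 fold change 4.73 ± 0.73, adjusted p = 0.000795). Of 19 genes tested, 15 were higher, and the 2 lower genes, Gzmd and Gzme, belong to a cluster of near-identical granzymes. The list of 21 genes summed to 326, 358, 474 and 422 CPM in the D2.1 tumors and 65.6, 31.7, 34.5 and 66.2 CPM in the D2A1 tumors, and in culture to 7.504 to 8.90 CPM in D2.1 and 30.4 to 35.0 CPM in D2A1 libraries.

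B cell and plasma cell transcripts were higher in D2.1 tumors and varied between them. The 25 listed genes summed to 800.0, 410.5, 1279 and 1386 CPM in the D2.1 tumors and 270.3, 250.1, 269 and 294 CPM in the D2A1 tumors, with no overlap, and in culture to 96.2 to 114 CPM in D2.1 and 69.2 to 83.5 CPM in D2A1 libraries, where 1 gene was tested and was higher. Jchain, which joins secreted IgM and IgA, was at 46.8, 12.6, 71.6 and 91.7 CPM in the D2.1 tumors and 3.64, 0.312, 1.28 and 1.57 CPM in the D2A1 tumors (log2 fold change 5.02 ± 0.73, adjusted p = 0.000538). Pax5, the B lineage factor, was at 8.55, 0.975, 1.64 and 16.8 CPM against 0.352, 0, 0 and 0.0559 CPM (log2 fold change 5.98 ± 1.20, adjusted p = 0.00359), and its adjusted p was 0.0515 without D2.1 replicates 1 and 4. The immunoglobulin gene Ighg2c was at 6.32, 0.671, 115 and 12.998 CPM against 0.587, 0.125, 0 and 0.0559 CPM, most of it in D2.1 replicate 3, and reads of constant region genes may be shared with close relatives. Ighg2c lost its call with the GC slope (adjusted p = 0.0872) and with no filter (0.0565). Of the 16 genes that passed the filter, 15 were higher and none lower, and 11 were higher without D2.1 replicates 1 and 4.

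**Figure D3:**
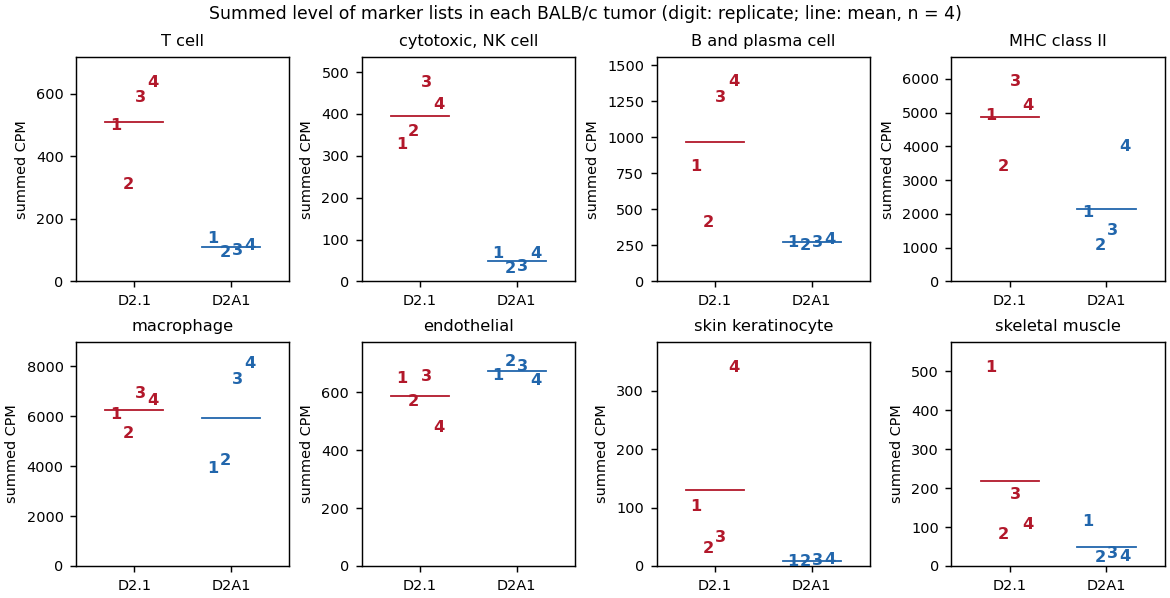
Summed CPM of 8 marker lists in each tumor (linear axes from 0), with each tumor drawn as its replicate number and a line at the mean of the 4 tumors of a line. The T cell, cytotoxic and B cell sums of the 4 D2.1 tumors all lie above those of the D2A1 tumors, whereas the macrophage sums, 5314 to 6921 CPM in D2.1 and 3921 to 8113 CPM in D2A1 tumors, overlap.

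Macrophage genes as a group did not separate the tumors. They summed to 6060.1, 5314, 6921 and 6650.5 CPM in the D2.1 tumors and 3921, 4226, 7482 and 8113 CPM in the D2A1 tumors, and of 24 tested 4 were higher and 5 lower, with a median of -0.11. Csf1r, the receptor that macrophages depend on, overlapped, at 396, 391, 301 and 340.1 CPM in the D2.1 tumors and 256, 275, 387 and 446 CPM in the D2A1 tumors. Adgre1, the F4/80 antigen, was at 154, 161, 91.2 and 112 CPM against 62.4, 84.8, 60.8 and 90.5 CPM (log2 fold change 0.80 ± 0.22, adjusted p = 0.0182) and lost its call without D2.1 replicate 1 (adjusted p = 0.0533), D2A1 replicate 1 (0.0572) or D2A1 replicate 3 (0.0608). Nos2, the inducible nitric oxide synthase, was lower, at 3.16, 0.915, 1.35 and 1.30 CPM in the D2.1 tumors and 18.3, 11.1, 6.93 and 8.56 CPM in the D2A1 tumors (log2 fold change -2.73 ± 0.46, adjusted p = 0.00132). Arg1, arginase 1, was at 16.5, 1.89, 0.996 and 0.715 CPM in the D2.1 tumors and 54.0, 25.1, 33.2 and 51.1 CPM in the D2A1 tumors, with D2.1 replicate 1 the highest of its group (log2 fold change -3.01 ± 0.86, adjusted p = 0.0217, 0.0528 without D2A1 replicate 4, 0.0992 with the GC slope and 0.123 with no filter). Ly6c2, a marker of inflammatory monocytes, was higher, at 8.50, 12.4, 17.99 and 24.4 CPM in the D2.1 tumors and 4.82, 1.25, 0.912 and 4.64 CPM in the D2A1 tumors (log2 fold change 2.44 ± 0.56, adjusted p = 0.00731), and so was the efferocytosis receptor Mertk (log2 fold change 1.30 ± 0.35, adjusted p = 0.0169, and 0.0547 without D2A1 replicate 4). The scavenger receptor Cd163 was the fourth higher gene, and Trem2, Cx3cr1 and Itgam the other lower genes. Cd163 passed in the omission of D2A1 replicate 2 or 4 and not in the others (adjusted p = 0.0512 to 0.101), and Itgam in that of D2A1 replicate 1 or 2 and not in the others (0.0582 to 0.12). With the block 5 were higher and 8 lower, with the GC slope 10 were lower, and without D2.1 replicates 1 and 4 2 were higher and 3 lower, with adjusted p of 0.096 for Adgre1, 0.154 for Cd163, 0.0751 for Trem2 and 0.178 for Itgam. The count of higher genes was 2 without D2.1 replicate 1, D2A1 replicate 1 or D2A1 replicate 3, and that of lower genes was 3 without D2A1 replicate 4.

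Dendritic cell genes were higher in 8 of 15 cases and lower in 1, with a median of 0.85. The list summed to 861 to 1234 CPM in D2.1 and 793 to 1025 CPM in D2A1 tumors, with overlap. In culture it summed to 980 to 1224 CPM in D2.1 and 779 to 1037 CPM in D2A1 libraries, so cells without a host carried transcripts of this list too. Xcr1, the chemokine receptor of cross-presenting dendritic cells, was at 6.27, 8.35, 11.5 and 8.97 CPM in the D2.1 tumors and 1.76, 0.499, 2.37 and 2.96 CPM in the D2A1 tumors (log2 fold change 2.20 ± 0.46, adjusted p = 0.00475). Flt3, the receptor for their growth factor, was at 10.8, 6.52, 6.80 and 9.03 CPM against 0.998, 0.125, 0.608 and 2.96 CPM (log2 fold change 2.80 ± 0.67, adjusted p = 0.00885), and Siglech, of plasmacytoid cells, was at 6.97, 4.69, 8.61 and 17.2 CPM against 1.06, 0, 0.426 and 2.35 CPM (log2 fold change 3.27 ± 0.83, adjusted p = 0.0124). Both lost their calls without D2.1 replicates 1 and 4 (adjusted p = 0.0660 and 0.0788). Ccl22, a chemokine of mature dendritic cells that attracts regulatory T cells through Ccr4, was at 24.8, 5.67, 14.9 and 22.8 CPM in the D2.1 tumors and 2.11, 0.561, 1.52 and 2.24 CPM in the D2A1 tumors (log2 fold change 3.40 ± 0.53, adjusted p = 0.000855). Without D2.1 replicates 1 and 4, 4 of these genes were higher and none lower, and with the block 2 were lower. The lower gene was the adhesion protein Cadm1 (log2 fold change -0.78 ± 0.21, adjusted p = 0.0148), with 0.124 without D2.1 replicates 1 and 4, and 2 were lower without D2.1 replicate 4 or D2A1 replicate 2, with DESeq2 and with the GC slope.

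Of 12 neutrophil genes tested, 3 were higher, namely Csf3r, the G-CSF receptor, the chemokine receptor Cxcr2 and the chemokine Cxcl5. They were at 61.6, 39.5, 57.3 and 50.95 CPM against 26.1, 16.9, 17.7 and 30.2 CPM (log2 fold change 1.20 ± 0.23, adjusted p = 0.00305), 4.85, 4.76, 6.68 and 8.12 CPM against 1.94, 1.68, 0.487 and 0.224 CPM (log2 fold change 2.49 ± 0.59, adjusted p = 0.00838) and 10.8, 25.1, 10.2 and 12.5 CPM against 4.82, 1.56, 2.43 and 3.02 CPM (log2 fold change 2.30 ± 0.42, adjusted p = 0.00199). The calgranulin S100a8 overlapped, at 1.69, 5.67, 7.44 and 6.89 CPM against 6.34, 1.75, 5.53 and 2.35 CPM, and Ly6g, which defines neutrophils, did not pass the filter. The count of lower genes was 1 without D2A1 replicate 2 and without D2.1 replicates 1 and 4, and 2 with the GC slope. The whole list, which includes granulocyte growth factors, summed to 132 to 195 CPM in D2.1 and 59.6 to 115 CPM in D2A1 tumors. In culture, without a host, it summed to 289 to 876 CPM in D2.1 and 23.4 to 36.7 CPM in D2A1 libraries.

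Among chemokines and receptors of lymphocytes, the interferon-induced ligands Cxcl9 and Cxcl10 overlapped between the lines, at 54.9, 31.1, 56.9 and 88.8 CPM against 92.5, 42.9, 33.8 and 104 CPM and 45.5, 53.7, 53.7 and 69.4 CPM against 62.2, 50.05, 41.97 and 58.4 CPM. Their receptor Cxcr3, carried by activated T and NK cells, was higher, at 8.01, 9.33, 15.2 and 18.6 CPM in the D2.1 tumors and 0.881, 0.561, 0.547 and 1.57 CPM in the D2A1 tumors (log2 fold change 3.83 ± 0.44, adjusted p = 0.00013). Xcl1, the ligand of Xcr1 made by NK and CD8 T cells, was at 4.36, 7.99, 17.3 and 12.3 CPM in the D2.1 tumors and 0.646, 0.0623, 0.304 and 1.12 CPM in the D2A1 tumors (log2 fold change 4.27 ± 0.68, adjusted p = 0.000925). Of 18 genes tested, 9 were higher and none lower, with a median of 1.61, and 1 was lower without D2.1 replicate 4 and with the GC slope. There were 7 higher without D2.1 replicates 1 and 4. The 22 listed genes summed to 539.8, 397, 577 and 690.1 CPM in the D2.1 tumors and 393, 300.3, 298 and 468 CPM in the D2A1 tumors, with overlap.

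MHC class I genes were higher in D2.1 tumors in 11 of 19 cases and lower in 1, with a median of 0.95. The nonclassical genes H2-Q7 and H2-Q6, near-identical copies whose reads may be exchanged, were at 135, 144, 297 and 196 CPM against 12.6, 6.48, 9.79 and 15.2 CPM (log2 fold change 4.13 ± 0.34, adjusted p = 1.39e-05) and 272, 306, 518 and 441 CPM against 57.3, 35.0, 40.7 and 85.5 CPM (log2 fold change 2.81 ± 0.32, adjusted p = 0.000104). The peptide transporter Tap1 was at 275, 258, 439.9 and 339.7 CPM against 226, 118, 101 and 252 CPM (log2 fold change 0.91 ± 0.30, adjusted p = 0.0411), and its adjusted p was 0.0542 to 0.115 without D2.1 replicate 1, 3 or 4 or D2A1 replicate 2 or 3, 0.163 with the GC slope and 0.11 without D2.1 replicates 1 and 4. B2m, the light chain, overlapped, at 2167, 2261, 3454 and 3375 CPM against 1922, 1154, 1594 and 2409 CPM (adjusted p = 0.0641, 0.00721 with the block, 0.0499 without D2.1 replicate 2 and 0.0332 without D2A1 replicate 4). The peptide editor Tapbpl was lower, at 44.8, 33.0, 70.6 and 59.1 CPM against 93.0, 77.6, 104 and 142 CPM (log2 fold change -1.005 ± 0.26, adjusted p = 0.0136, and 0.0758 without D2.1 replicates 1 and 4), and 2 genes were lower without D2.1 replicate 2 and with the block, and none without D2.1 replicates 1 and 4. The count of higher genes was 6 without D2.1 replicate 3, 6 without D2A1 replicate 2, 7 without D2A1 replicate 3, 7 with the GC slope and 6 without D2.1 replicates 1 and 4.

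MHC class II genes rose in D2.1 tumors by the test on all 8 tumors, but few of these calls stood when tumors were left out. The list summed to 4910.2, 3414, 5907 and 5214 CPM in the D2.1 tumors and 2030.1, 1062, 1495 and 3994 CPM in the D2A1 tumors, and D2A1 replicate 4 lay among the D2.1 tumors. H2-Aa, the alpha chain of I-A (chr17:34282744-34287823), was at 150.3, 86.1, 199.8 and 169 CPM in the D2.1 tumors and 39.99, 12.3, 27.1 and 106 CPM in the D2A1 tumors (log2 fold change 1.70 ± 0.55, adjusted p = 0.036). H2-Eb1, the beta chain of I-E, was at 633, 428, 949.7 and 698 CPM against 212.1, 76.2, 118 and 455 CPM (log2 fold change 1.65 ± 0.49, adjusted p = 0.0248). Ciita, the coactivator that turns the pathway on, was at 67.2, 46.2, 66.5 and 58.03 CPM in the D2.1 tumors and 20.96, 10.8, 5.84 and 36.0 CPM in the D2A1 tumors without overlap (log2 fold change 1.69 ± 0.46, adjusted p = 0.0165, and 0.0865 without D2.1 replicates 1 and 4). H2-Ob, of the peptide exchange modulator DO of B cells, was at 5.50, 3.35, 7.62 and 4.55 CPM against 0.998, 0.374, 0.122 and 1.29 CPM (log2 fold change 2.90 ± 0.60, adjusted p = 0.00427). Of 11 genes tested, 7 were higher and none lower, with a median of 1.46. Without D2.1 replicate 3 the count was 3, without D2A1 replicate 1 it was 4, without D2A1 replicate 3 it was 3, and without D2.1 replicates 1 and 4 it was 1. With the GC slope 2 were higher and 1 lower, and with no filter 3 were higher. Among these single omissions the adjusted p was 0.0867, 0.0876 and 0.0979 for H2-Aa and 0.0677, 0.0598 and 0.0691 for H2-Eb1, and H2-Aa was also lost without D2.1 replicate 1 (0.0659) or 4 (0.0706). H2-Aa and H2-Eb1 had adjusted p of 0.162 and 0.131 with the GC slope, 0.164 and 0.12 with no filter, and 0.147 and 0.0968 without D2.1 replicates 1 and 4, and Ciita 0.0852 with the GC slope.

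The promoters of 2 class II genes and of the class I gene H2-K1 are shown, on the same build and window as above, because the letters CTGATTGG or their reverse CCAATCAG, a form of the Y box of MHC promoters that contains the reverse of CCAAT, recur in these lists. The match is in capitals.

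H2-Aa (chr17:34287774-34288073, minus strand): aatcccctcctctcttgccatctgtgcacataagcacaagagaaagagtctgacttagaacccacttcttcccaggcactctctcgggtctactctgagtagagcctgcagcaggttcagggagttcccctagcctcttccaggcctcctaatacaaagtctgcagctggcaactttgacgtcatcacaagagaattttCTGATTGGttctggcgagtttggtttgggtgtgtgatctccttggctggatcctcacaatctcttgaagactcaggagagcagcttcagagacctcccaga

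H2-Eb1 (chr17:34305617-34305916, plus strand): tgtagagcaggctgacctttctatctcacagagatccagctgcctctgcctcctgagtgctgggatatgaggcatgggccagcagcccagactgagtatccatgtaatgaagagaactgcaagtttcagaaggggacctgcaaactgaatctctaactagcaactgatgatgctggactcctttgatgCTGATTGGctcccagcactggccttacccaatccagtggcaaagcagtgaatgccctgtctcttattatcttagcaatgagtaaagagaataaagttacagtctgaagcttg

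H2-K1 (chr17:34000298-34000597, minus strand): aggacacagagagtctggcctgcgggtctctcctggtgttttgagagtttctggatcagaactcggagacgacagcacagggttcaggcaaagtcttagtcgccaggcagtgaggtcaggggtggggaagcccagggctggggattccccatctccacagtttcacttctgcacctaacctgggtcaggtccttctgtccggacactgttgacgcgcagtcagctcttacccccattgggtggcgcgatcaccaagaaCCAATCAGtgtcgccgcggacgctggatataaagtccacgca

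The match lay at -51 to -44 in H2-Aa, at -62 to -55 in H2-Eb1 and, on the opposite strand, at 8 to 15 in H2-K1, counted from the first listed start. It was found in 7 of 16 class I genes with a promoter (43.8%) and in 3 of 8 class II genes (37.5%), against 4.70% of all genes and 6 of 25 mitosis genes. The 7 class I genes include the near-identical copies H2-Q6 and H2-Q7, so these matches are not all independent. H2-K1, chosen after its values were seen, was at 214.3, 219.7, 387 and 342 CPM against 124, 80.1, 93.2 and 143 CPM (log2 fold change 1.40 ± 0.25, adjusted p = 0.00181).

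Few interferon-stimulated genes passed the threshold. Of 34 tested, 2 were higher and 1 lower, against 16.8% higher and 15.8% lower of all genes tested. The count of higher genes was 9 with the GC slope, 7 with DESeq2 and 4 with no filter or in a fit of all 18 tumors, and 3 were lower with DESeq2. The guanylate-binding protein Gbp5 was at 67.995, 84.1, 97.7 and 63.9 CPM in the D2.1 tumors and 24.9, 17.1, 11.01 and 24.05 CPM in the D2A1 tumors (log2 fold change 2.02 ± 0.27, adjusted p = 0.000313), and the signal transducer Stat2 was at 103, 142, 124 and 131 CPM against 81.4, 62.9, 51.3 and 79.6 CPM (log2 fold change 0.86 ± 0.18, adjusted p = 0.00491). The ubiquitin-like Isg15 overlapped, at 32.5, 49.8, 74.9 and 109.8 CPM against 66.6, 45.4, 72.6 and 76.5 CPM. The lower gene, Oasl1 (adjusted p = 0.0411), kept its call only without D2.1 replicate 2 or 4, with 0.0525 to 0.108 in the other omissions, 0.0823 without D2.1 replicates 1 and 4 and 0.138 in a fit of all 18 tumors. With the block 8 were higher and 4 lower, and 6 were higher without D2.1 replicate 1, while the lower count was 0 without D2.1 replicate 1 or 3 or D2A1 replicate 1 or 4, 2 without D2.1 replicate 2 or D2A1 replicate 2 or 3, and 3 without D2.1 replicate 4. Of 15 complement genes, C3, the central component, was higher, at 596, 80.2, 171 and 267 CPM against 67.1, 63.5, 110.4 and 76.3 CPM (log2 fold change 1.81 ± 0.50, adjusted p = 0.0185), but not with the block (0.0887), nor without D2A1 replicate 1 (0.0524), D2A1 replicate 4 (0.0526) or D2.1 replicates 1 and 4 (0.221), nor with the GC slope (0.128) or no filter (0.0964). The lectin pathway protease Masp1 was higher as well, at 116, 145, 117 and 149 CPM against 75.5, 92.2, 77.003 and 69.0 CPM (log2 fold change 0.75 ± 0.15, adjusted p = 0.00406), and the receptor C5ar1 lower (log2 fold change -0.85 ± 0.25, adjusted p = 0.0238, 0.0608 and 0.0732 without D2A1 replicate 3 or 4, and 0.0568 without D2.1 replicates 1 and 4).

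Endothelial genes were lower in D2.1 tumors in 12 of 18 cases and higher in 2, with a median of -1.07, and the same counts stood without D2.1 replicates 1 and 4. Cdh5, the junction protein VE-cadherin, was at 34.1, 27.4, 14.9 and 24.6 CPM in the D2.1 tumors and 80.3, 88.9, 69.5 and 65.3 CPM in the D2A1 tumors (log2 fold change -1.59 ± 0.24, adjusted p = 0.000706). Pecam1, the adhesion molecule CD31, was at 61.5, 47.9, 40.2 and 52.7 CPM in the D2.1 tumors and 86.1, 107, 85.2 and 84.2 CPM in the D2A1 tumors (log2 fold change -0.84 ± 0.17, adjusted p = 0.00369). Esam was at 11.5, 10.1, 8.32 and 15.9 CPM against 32.003, 32.4, 39.2 and 33.1 CPM (log2 fold change -1.58 ± 0.22, adjusted p = 0.000415). The groups of these did not overlap. Of the 2 higher genes, Vwf, von Willebrand factor, was at 27.3, 14.6, 18.8 and 23.2 CPM in the D2.1 tumors and 10.1, 5.80, 7.60 and 8.22 CPM in the D2A1 tumors (log2 fold change 1.40 ± 0.26, adjusted p = 0.00229), and the transcription factor Sox18 was at 176, 217.2, 268 and 14.6 CPM in the D2.1 tumors and 23.6, 22.6, 25.7 and 25.2 CPM in the D2A1 tumors, where D2.1 replicate 4 lay below all D2A1 tumors (log2 fold change 2.80 ± 0.64, adjusted p = 0.00697, and 0.0939 with the block). With the block, and with no filter, where Sox18 had an adjusted p of 0.0603, 1 gene was higher. The sum of the list overlapped, at 479 to 654 CPM in D2.1 and 641 to 706 CPM in D2A1 tumors. In culture, without a host, the list summed to 143 to 168 CPM in D2.1 and 28.0 to 39.7 CPM in D2A1 libraries. There 2 of the 4 genes tested were higher in D2.1 and 0 lower.

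Of 13 pericyte and smooth muscle genes tested, 1 was higher and 1 lower, against 16.8% and 15.8% of all genes tested. Their sums did not overlap, at 1035, 805, 741 and 848 CPM in the D2.1 tumors and 567, 629, 496 and 424 CPM in the D2A1 tumors. The higher gene Pdgfrb counts in these sums. In culture, without a host, the list summed to 290 to 349 CPM in D2.1 and 54.2 to 80.8 CPM in D2A1 libraries. Rgs5 and Acta2 overlapped, at 19.9 to 39.4 CPM against 27.01 to 29.1 CPM and 75.1 to 208 CPM against 75.4 to 123 CPM, although Acta2 had an adjusted p of 0.0410 without D2.1 replicate 2. Cspg4, the proteoglycan NG2, was lower (log2 fold change -1.997 ± 0.40, adjusted p = 0.00375) and Pdgfrb, a receptor of mural cells and fibroblasts, was higher, at 682, 644, 565 and 546 CPM in the D2.1 tumors and 337, 449.7, 275 and 246 CPM in the D2A1 tumors (log2 fold change 0.90 ± 0.20, adjusted p = 0.00558). In single omissions the higher count reached 3 without D2.1 replicate 2 and 2 without D2.1 replicate 3, and the lower count was 2 without D2.1 replicate 1, and with the block 2 were higher and 2 lower. DESeq2 and the GC slope called 2 higher, and 2 were lower without D2.1 replicates 1 and 4.

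Fibroblast genes were higher in 9 of 15 cases and lower in 2, with a median of 0.90. Pdgfra, a growth factor receptor of fibroblasts, was at 377, 660.3, 353 and 235 CPM in the D2.1 tumors and 38.1, 41.8, 21.6 and 20.02 CPM in the D2A1 tumors (log2 fold change 3.74 ± 0.37, adjusted p = 4.24e-05). Dpt, dermatopontin, was at 120.4, 104.7, 186 and 205 CPM in the D2.1 tumors and 13.4, 14.8, 12.5 and 19.02 CPM in the D2A1 tumors (log2 fold change 3.36 ± 0.26, adjusted p = 9.17e-06). Fap, the fibroblast activation protease, was at 45.8, 59.9, 43.4 and 62.8 CPM in the D2.1 tumors and 4.99, 3.18, 6.69 and 5.03 CPM in the D2A1 tumors (log2 fold change 3.41 ± 0.26, adjusted p = 7.75e-06), and the growth arrest gene Gas1 was at 521, 682, 591 and 575 CPM in the D2.1 tumors and 82.0, 94.9, 78.9 and 97.0 CPM in the D2A1 tumors (log2 fold change 2.75 ± 0.15, adjusted p = 9.44e-07). The lower genes were Scara5, at 8.94, 13.05, 4.45 and 17.8 CPM against 45.1, 43.9, 28.5 and 49.2 CPM (log2 fold change -1.91 ± 0.37, adjusted p = 0.00304), and Cd34 (log2 fold change -0.80 ± 0.22, adjusted p = 0.0199), which lost its call without D2.1 replicate 3 or 4 or D2A1 replicate 4 (0.0508 to 0.0563). The count of higher genes was 6 without D2.1 replicates 1 and 4 and with the GC slope. D2.1 cells carried some of these transcripts in culture too, where Pdgfra, Fap and Gas1 were higher than in D2A1 cells by 3.20 ± 0.30, 4.99 ± 0.62 and 5.72 ± 0.36 on the log2 scale, and Dpt had at most 8 counts in any culture library.

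Calls in the muscle, skin and fat lists changed with the tumors used. Of 15 muscle genes tested 4 were higher (Myh4, Actn3, Pvalb and Ryr1), but 9 with the block, 11 without D2A1 replicate 1, and 1 without D2.1 replicate 1 or D2A1 replicate 2, 3 or 4, where the adjusted p was 0.0601 to 0.121 for Myh4, 0.058 to 0.0833 for Pvalb and 0.0727 to 0.101 for Ryr1. Pvalb was also lost without D2.1 replicate 3 (0.132) and with the block (0.0694). The count was 2 with DESeq2, no filter or the GC slope and 1 without D2.1 replicates 1 and 4. Acta1, skeletal actin, was at 147, 20.2, 38.1 and 40.7 CPM against 36.8, 1.496, 0.426 and 0.727 CPM (adjusted p = 0.124, 0.0166 with the block and 0.000882 without D2A1 replicate 1). The milk protein Csn2 was at 213.2 CPM in D2.1 replicate 1 and had at most 6 counts elsewhere. The skin keratin Krt1 was at 5.01 CPM in D2.1 replicate 1, at 45.4 CPM in replicate 4 and at 0 in the other 6 tumors. No adipocyte gene passed the threshold among 13 (edgeR), although 3 did without D2.1 replicate 2, 1 did with the block and DESeq2 called 3, among them Adipoq (adjusted p = 0.0365). Of 5 skin genes tested, the basal keratins Krt5 and Krt14 were higher, and 4 genes were higher without D2.1 replicate 2. Krt5 lost its call without D2.1 replicate 1 or 4 or any D2A1 replicate (adjusted p = 0.0519 to 0.0986), with the block (0.113) and without D2.1 replicates 1 and 4 (0.813). Of 4 red blood cell genes tested the beta-globin Hbb-bs was lower, not so without D2.1 replicate 2, 3 or 4 or D2A1 replicate 1 or 3 (0.0563 to 0.134), and 3 were lower without D2.1 replicate 1. Neither of the 2 milk genes tested passed the threshold. However, 1 was higher without D2.1 replicate 4 and with the GC slope, and 1 was lower without D2.1 replicates 1 and 4.

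The same 2 lines without a host served to set the tumor values beside those of the tumor cells alone. In culture, 12489 genes were tested and 5602 differed (44.9%), of which 3023 were higher in D2.1 cells (24.2%) and 2579 lower (20.7%). Of the 2510 genes higher in D2.1 tumors, 1253 (49.9%) were higher in D2.1 cells, 88 were lower and 332 (13.2%) had at most 3 counts in every culture library. Of all genes tested in tumors, 19.7% were higher in D2.1 cells and 7.28% had at most 3 counts. Of the 2358 genes lower in D2.1 tumors, 1069 (45.3%) were lower in culture, against 16.7% of all genes tested, and 71 (3.01%) had at most 3 counts. Dkk3 was higher in D2.1 cells, at 1.34 to 3.32 CPM with at most 75 counts in a D2.1 library, and had 0 counts in every D2A1 library. These levels were far under those in tumors, which were 246 to 296 CPM in D2.1 and 5.98 to 11.6 CPM in D2A1. The difference between culture and tumor was not tested. Col5a3, Sox9, Mxd4 and Slc16a3 were higher by 5.70 ± 0.27, 3.34 ± 0.18, 2.04 ± 0.60 and 4.34 ± 0.41, and Myc and Rrm2 were lower, at -1.59 ± 0.15 and -1.07 ± 0.19. Cd3e, Foxp3, Jchain and H2-Aa had at most 8 counts in any culture library.

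Some named genes were called in opposite directions in tumors and in culture: 8 of the 86 that passed the threshold in both, the other 78 agreeing in sign. Over all genes, 88 of the 2510 higher in D2.1 tumors (3.51%) were lower in culture and 1253 higher. Of the 2358 lower in D2.1 tumors, 144 (6.11%) were higher in culture and 1069 lower. Opposite calls were thus not particular to the named genes. Krt18 was lower in D2.1 tumors but higher in D2.1 cells, by 2.43 ± 0.36. Spp1 was -1.604 ± 0.21 in tumors and 3.64 ± 0.29 in culture, and Nt5e was -2.17 ± 0.25 and 1.77 ± 0.19. Scara5, Cyp51, Areg and Slc2a1 also turned from lower to higher, and Masp1 from higher to lower. The 2 tables were made separately, and these differences between tumor and culture were not tested.

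**Figure D4:**
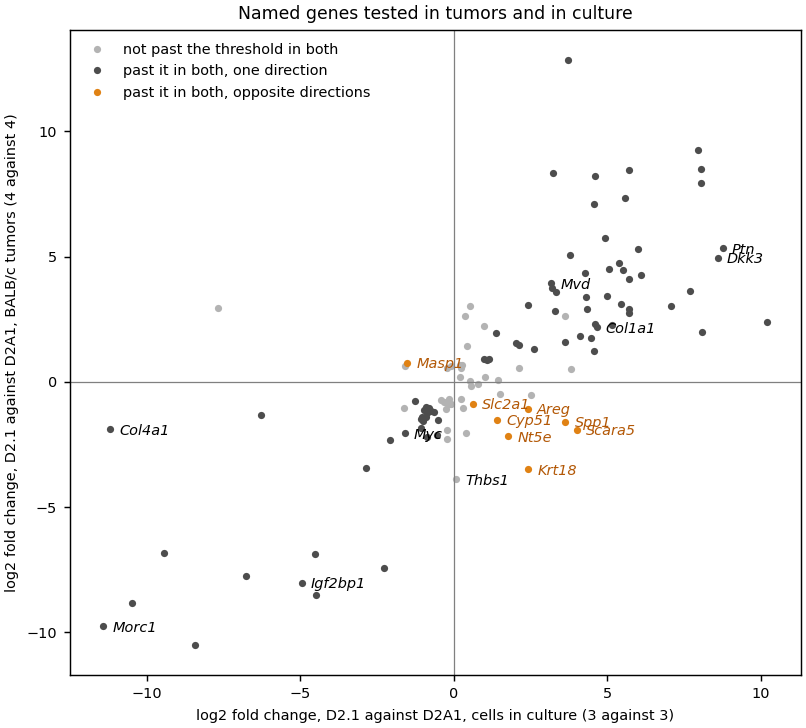
Log2 fold change of D2.1 against D2A1 in culture (x axis) and in BALB/c tumors (y axis) for the 122 named genes tested in both. Of the 86 genes past the threshold in both, 78 lie in the quadrants of equal sign and 8, among them Krt18, Spp1 and Nt5e, in the others.

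In SCID-beige mice 14355 genes were tested and 4607 differed (32.1%), of which 2476 were higher (17.2%) and 2131 lower (14.8%) in D2.1 tumors. Of the 2510 genes higher in BALB/c, 1705 (67.9%) were higher in SCID-beige and 4 lower, and of the 2358 lower in BALB/c, 1410 (59.8%) were lower and none higher, by the same edgeR test. Cd4, Cd2, Ncr1 and Prf1 were higher in D2.1 tumors of that host too (2.21 ± 0.46, 3.76 ± 0.57, 5.08 ± 0.80 and 5.28 ± 0.55), although at lower levels for T cell genes, whose sum there was 104 to 167 CPM in D2.1 and 87.3 to 137 CPM in D2A1. Cd3e, Cd8a, Foxp3 and Jchain did not pass the filter in SCID-beige tumors.

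The difference of the line effect between the hosts was tested as an interaction over all 18 tumors, and 3 of 16036 genes passed (0.0187%, edgeR), while 1355 had an unadjusted p under 0.05 and DESeq2 called 102. Trac, the constant region of the T cell receptor alpha chain, was at 10.7, 5.79, 15.9 and 18.6 CPM in the D2.1 tumors and 5.23, 2.56, 4.01 and 3.08 CPM in the D2A1 tumors in BALB/c and lower in the D2.1 tumors of SCID-beige mice (-2.85 ± 0.61, adjusted p = 0.00274), an interaction of 4.61 ± 0.71. D2A1 cells held up to 32 counts of Trac in culture and D2.1 cells at most 4. D630003M21Rik was at 229, 293, 271 and 260.5 CPM in the D2.1 tumors and 5.52, 6.48, 10.2 and 4.59 CPM in the D2A1 tumors, with an interaction of 2.39 ± 0.35. Crmp1, a cytoplasmic protein of growing axons, was at 1.85, 1.65, 2.17 and 2.34 CPM in the D2.1 tumors and 0.528, 1.37, 0.730 and 0.671 CPM in the D2A1 tumors, with 6.67 ± 1.03. Within BALB/c, Crmp1 had a log2 fold change of 1.27 and an adjusted p of 0.044, 0.0548 with the block, and 0.0525 to 0.127 without any tumor other than D2A1 replicate 2. Most of its interaction of 6.67 therefore came from a difference in the opposite direction between the SCID-beige tumors. The interaction adjusted p was 0.0173 for each of the 3 genes, and no gene passed without D2.1 replicate 3 or 4, or without D2A1 replicate 1 or 4, of the BALB/c tumors. Without D2A1 replicate 3 of the BALB/c tumors or D2.1 replicate 2 of the SCID-beige tumors 1 gene passed, without D2.1 replicate 2 of the BALB/c tumors 8 did, and without D2.1 replicate 4 of the SCID-beige tumors 12 did.

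By chromosome, the share of genes higher in D2.1 tumors was 31.3% on chromosome 10 (220 of 702 tested) and 31.1% on chromosome 15 (184 of 592), against 16.8% of all genes. The median log2 fold change on them was 0.41 and 0.37 in BALB/c tumors, 0.49 and 0.39 in SCID-beige tumors and 0.51 and 0.59 in culture. Col6a1, Col6a2, Lama4 and Col18a1 lie on chromosome 10, and Col2a1, Peg13 and the lower gene Myc on chromosome 15. The lowest medians were -0.34 on chromosome 12, which was -0.26 in SCID-beige and -0.54 in culture, and -0.34 on chromosome X, which was -0.22 and -0.27.

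**Figure D5:**
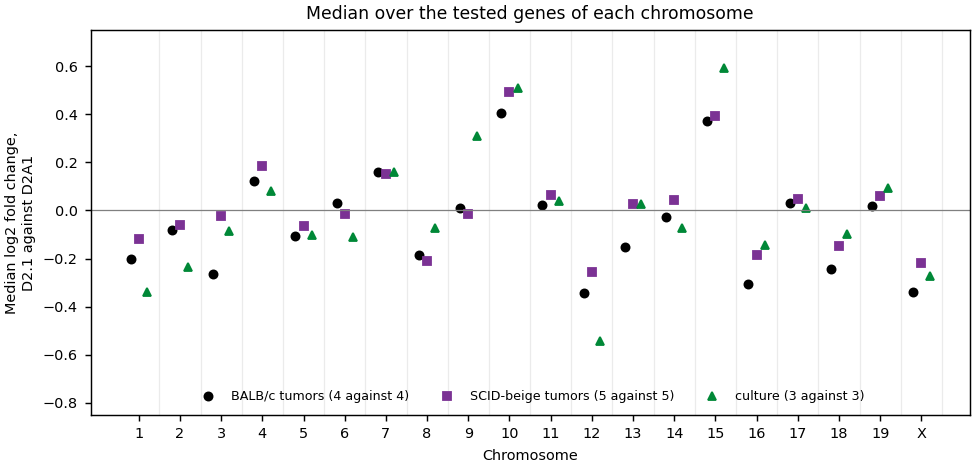
Median log2 fold change of D2.1 against D2A1 for each chromosome in BALB/c tumors, SCID-beige tumors and culture, over the genes tested in each. Chromosomes 10 and 15 have the highest medians of the autosomes in all 3 settings, and chromosome 12 has the lowest.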

How the data were processed

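RNA of individual tumors and of cultured cells was sequenced on an Illumina instrument. The authors deposited raw read counts per gene, in separate tables for tumors and for cultured cells, and FPKM for tumors. The processing notes name STAR and mm10, while the counting program, annotation and strand setting are not given in the sources used here, so reads of antisense or overlapping genes may be mixed. The deposited FPKM equal counts divided by length and library total for 17418 genes checked (within 1%), and are used here for Dkk3 alone. Samples were grouped by their labels. Counts were tested with edgeR 4.0.16 in R 4.3.3 (quasi-likelihood, TMM, filterByExpr by group) separately in BALB/c tumors, SCID-beige tumors and culture, with Benjamini-Hochberg adjustment and a threshold of 0.05. An interaction was fitted over all 18 tumors. Bounds on folds use a floor of 3 counts per library, and gene positions come from GENCODE on GRCm38, in which 123 of 54532 tumor gene IDs were not matched (0.0446% of counts).

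The members and the 38 gene lists (789 of 791 genes matched) and motifs were chosen with earlier results of these data known. Named genes were 2 anchors of each list and up to 2 of its largest called rises and falls, then, over all coding genes called without overlap and reaching a group mean of 5 CPM, the 10 strongest fitted changes and the 5 widest CPM gaps in either direction, and the genes called by the interaction. Same-numbered BALB/c tumors correlated in their deviations (r of 0.1004, 0.4907, 0.2802 and 0.3449), and the numbers were fitted as a replicate block. D2.1 replicates 1, 3 and 4 correlated better with D2A1 replicates 2 (0.1763), 4 (0.3286) and 3 (0.4139). The labels do not say what a number shares, so neither they nor the data establish pairs. Results with the block stand only as an alternative. Alternatives were DESeq2 1.42.0, its size factors, 2 other filters, a replicate block, a GC slope covariate, a fit of all tumors and omission of libraries. Counts were simulated with 200 genes, each of a mean over 2 CPM, changed by a log2 of 2. The BALB/c step recovered 89.5% of them over 14667 genes, with 4.28% of calls false. The simulation held no GC slope or tissue differences and far fewer changed genes than were called. These rates therefore do not describe the calls above. The results of some genes of the lists are not reported here.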

Additional observations from a re-analysis of the deposited data

Results flagged for a closer look

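Of 450 values of groups of 4 tumors examined, 27 (6.00%) held a tumor far from the other 3 by Dixon's criterion at the 95% level, where chance flags about 1 in 20 groups, and 11 of the 27 were in D2.1 replicate 1. In D2.1 replicate 1 the highest of the group were the milk protein sum (753 CPM), Csn2 (213.2 CPM), Wap (0.381 CPM), the erythroid sum (97.9 CPM), Hba-a1 (46.7 CPM), Acta1 (147 CPM), Arg1 (16.5 CPM), Ccnd2 (87.4 CPM), Ibsp (2.34 CPM) and Igf2bp1 (0.981 CPM), and Spon2 was the lowest (34.3 CPM). In the other D2.1 tumors, Cxcl5 stood high in replicate 2 (25.1 CPM), Ighg2c in replicate 3 (115 CPM), Rims2 in replicate 3 (0.234 CPM), and Krt14 and Krt1 in replicate 4 (142 and 45.4 CPM).

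Among D2A1 tumors, replicate 1 stood high for the muscle sum (115 CPM), Acta1 (36.8 CPM), Ckm (5.64 CPM), Myh4 (3.58 CPM), the Wnt modulator sum (95.4 CPM) and Pax5 (0.352 CPM). Pecam1 stood high in replicate 2 (107 CPM), Hmga2 and Esam in replicate 3 (0.973 and 39.2 CPM), and Tjp3 and Lama1 in replicate 4 (3.69 and 2.07 CPM).

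The difference between the lines was called different in the 2 hosts for 3 genes, by the interaction test on the log2 scale (edgeR, adjusted p = 0.0173 for each). No gene passed without D2.1 replicate 3 or 4, or without D2A1 replicate 1 or 4, of the BALB/c tumors. The interaction was 6.67 for Crmp1, 2.39 for D630003M21Rik and 4.61 for Trac.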

How the results depend on the processing

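The count of 4868 genes between BALB/c tumors was 4677 to 5747 with DESeq2, its size factors, both other filters or a fit of all 18 tumors, 7088 with a GC slope covariate, 7116 with the replicate block, 4074 to 5046 with 1 tumor left out and 3350 without D2.1 replicates 1 and 4. With the replicate block and GC slope together, which leaves 2 residual degrees of freedom, 545 passed and 162 of the 4868 genes changed sign. With a log2 fold change beyond 1 as well, 2939, 2610 and 2786 genes passed in BALB/c, SCID-beige and culture. With the block, 5311 passed in SCID-beige and 7539 in culture. The interaction count of 3 was 6 with size factors, 102 with DESeq2, 3 with the block, and 0 to 12 with 1 tumor left out. D2.1 replicates 1, 3 and 4 of the BALB/c tumors each correlated better with a D2A1 tumor of another number.

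Log2 fold changes of these genes turned sign. With the block they were -0.17 for Sfrp1 and -0.074 for Isg15, and with at least 10 counts -0.013 for Isg15. With the GC slope they were -0.15 for Sfrp1, 0.35 for Runx2, 0.0042 for Fasn and -0.37 for Isg15. With both, they were -2.35 for Sfrp1, -0.92 for Epcam, 0.44 for Runx2, -0.20 for Fn1, -0.25 for Tgfb1, 0.068 for Slc2a1, -0.97 for C3, -0.42 for Acta2, -12.99 for Krt10, -2.59 for Krt5, -0.55 for Actn3, -2.19 for Adipoq, -2.77 for Plin1, 0.23 for Xist and -0.71 for Crmp1. Without D2.1 replicates 1 and 4 they were -0.87 for Sfrp1, 0.067 for Runx2, -0.087 for Isg15, -0.15 for Acta2 and -4.93 for Krt10. With 1 tumor left out the ranges were -0.44 to 0.36 for Sfrp1, -0.32 to 0.10 for Runx2, -0.054 to 0.44 for Mki67, -0.47 to 0.0092 for Fasn, -0.059 to 0.21 for Csf1r, -0.51 to 0.028 for Cxcl9, -0.054 to 0.15 for Cxcl10, -0.33 to 0.26 for Isg15 and -0.33 to 0.035 for Rgs5. The cause was not tested. At this depth, levels under 0.163 to 0.195 CPM cannot be told from 0.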
